A study of Manihot esculenta with 32 samples.

Results

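In cassava (Manihot esculenta) cultivar TME 204, 68 of 32732 loci with a gene name showed transcript levels that were high in tissues rich in dividing cells and low in 6 mature organs. They were selected on their measured values. For each locus the mean FPKM (a fragment count scaled to transcript length and to the size of the library) of the 11 sample types was written as log2(mean + 1) and sorted, and the widest gap between neighbouring sample types had to be at least 1.5. The highest mean had to reach 10 FPKM, and the sample types above the gap had to be one of 3 sets. In 32 members they were the shoot apical meristem (SAM), the root apical meristem (RAM), organized embryogenic structures (OES), friable embryogenic callus (FEC) and lateral bud, called the bud pattern here. In 7 members they were SAM, RAM, OES and FEC (the culture pattern), and in 29 members SAM and RAM alone (the meristem pattern). A limit of 300 members was not reached. The levels above and below the gap chose the members, so they are given as a description, without a test.

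The data were 32 RNA-seq libraries, with 3 biological replicates for each sample type and 2 for storage root. Leaf, leaf midvein, petiole, stem, lateral bud, fibrous root, storage root, SAM and RAM came from glasshouse plants aged 3 months. OES and FEC were grown in culture, for 4 weeks and 7 weeks according to the sample labels, although the methods of the study give a shorter culture for FEC. Each SAM or RAM library was a pool of 6 dissected meristems. All plants and cultures were of this one cultivar, and the plants had no experimental treatment. Both cultures grew with the synthetic auxin picloram, on different basal media, and the FEC medium also held tyrosine and the antibiotic moxalactam, so medium and culture type cannot be told apart. RNA of SAM and RAM was isolated with another kit, from a smaller input, and fragmented differently from RNA of the other sample types, so the preparation cannot be told apart from these tissues. Neighbouring organs have no sharp borders, so a sample may hold cells of the organ beside it.

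Apical meristems keep small groups of stem cells whose daughters divide before they differentiate. A cell that enters the S phase of the cell cycle copies its DNA and makes new histones to package it, and in mitosis its microtubules form the spindle that separates the chromosomes. Genes for these tasks are transcribed in step with the cycle, and most cells of a mature leaf or storage organ no longer divide. Embryogenic cultures of cassava also divide, without the organization of a meristem. In a bulk sample, fewer cells of a type and less RNA per cell cannot be told apart.

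The libraries held from 4175114 to 24123487 fragments on loci with a gene name. The second library of lateral bud stood apart. The median level over all members was 17.2 and 12.1 FPKM in lateral bud libraries 1 and 3 and 2.08 FPKM in library 2, within the range of the stem libraries (1.8 to 2.85 FPKM). Library 2 was lower than both other bud libraries at 62 of the 68 members, and at 39.5% of the 20991 named loci that reached 10 FPKM. The rule used the bud mean, so the members were partly selected on the values of library 2. Its summed level of 30 photosystem and light-harvesting genes was 5190 FPKM, against 8662 and 6376 FPKM. Without this library the same rule gave 56 loci, 48 of them among the 68. Of the bud pattern 31 of 32 members kept their pattern, but of the meristem pattern only 12 of 29 did. The other 17 of the 29 left the set altogether, so they were members only with library 2 included.

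A further 3 members rested on few reads, with under 50 fragments in every library. Manes.17G076500 was at 0 FPKM in 30 libraries, 19.6 FPKM in SAM 2 and 69.4 FPKM in RAM 3, and never had more than 2 fragments. Manes.04G157900 reached at most 27 fragments and Manes.01G230700 at most 41. The other 65 members had at least 147 fragments in their best library. Another 4 members were loci that span more than 1 gene, and in 3 the gene name also lay on another locus, so their level cannot be given to a single gene with certainty.

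The labels were checked against marker genes. The homeobox gene Manes.17G027300 averaged 86.9 FPKM in SAM and 0.131 FPKM in RAM. CLAVATA3 (Manes.11G165600), a gene for a signalling peptide of the shoot stem cell niche, averaged 15.4 FPKM in SAM and was listed at 0 in RAM. It was higher in OES (40 FPKM). The KNOTTED-like gene Manes.05G184900 averaged 97.6 FPKM in SAM and was higher in stem (129 FPKM) and storage root (173 FPKM), so it did not set SAM apart. WUSCHEL related homeobox 2 (Manes.04G033600), an embryo gene in Arabidopsis, averaged 270 FPKM in FEC, 39.4 FPKM in OES and 1.73 FPKM or less in the other sample types. The one root meristem gene annotated here, WUSCHEL related homeobox 5 (Manes.10G016700), was at 1.46 FPKM in RAM and at 8.71 FPKM in storage root, so it did not mark the RAM libraries. Green-tissue genes were high in leaf (61433 to 73334 FPKM summed) and far lower in RAM (64.7 to 80.5 FPKM) and FEC (99.5 to 125 FPKM). SAM (2690 to 3238 FPKM) and OES (460 to 600 FPKM) lay between, so the SAM libraries were not free of green-tissue transcripts.

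**Figure D1:**
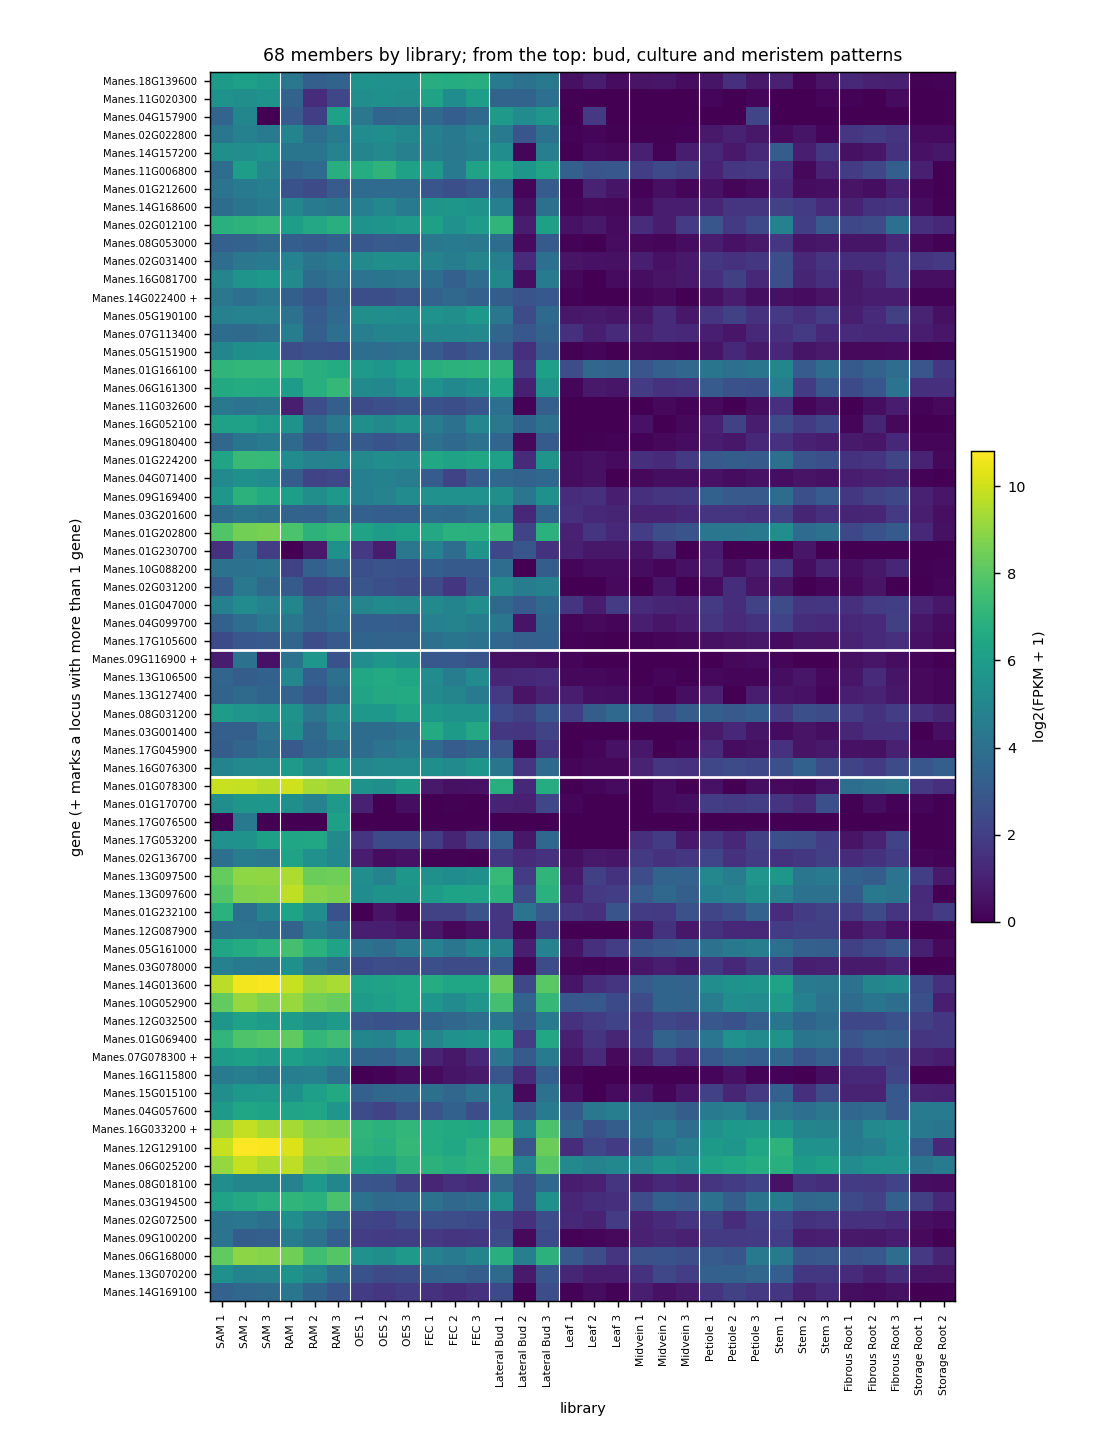
Heat map of the 68 members (rows) in the 32 libraries (columns), coloured by log2(FPKM + 1), with the bud, culture and meristem patterns from top to bottom and white lines between patterns and sample types. Lateral bud library 2 is dark at most members where libraries 1 and 3 are bright.

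Functional names were at hand for 18 of the 68 members, taken from lists in which the study had selected genes on these same samples, and the other 50 are given by their gene number alone. In a gene number such as Manes.01G078300 the digits after the point give the chromosome. Members lay on all 18 chromosomes, with 10 of 68 on chromosome 1, which held 8.39% of the named loci. The gap ranged from 1.52 to 3.43, with a median of 1.78. SAM was the highest sample type for 30 members, RAM for 17, FEC for 11, OES for 8 and lateral bud for 2. Every SAM and RAM library lay above every one of the 17 mature-organ libraries at 62 of the 68 members. The same held for 5.37% of all named loci of at least 10 FPKM, and since the rule asked for nearly this order, nothing is read from the difference. Apart from the 3 members with few reads, the exceptions were Manes.01G232100, Manes.11G032600 and the locus of Manes.09G116900 and Manes.09G117000.

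**Figure D2:**
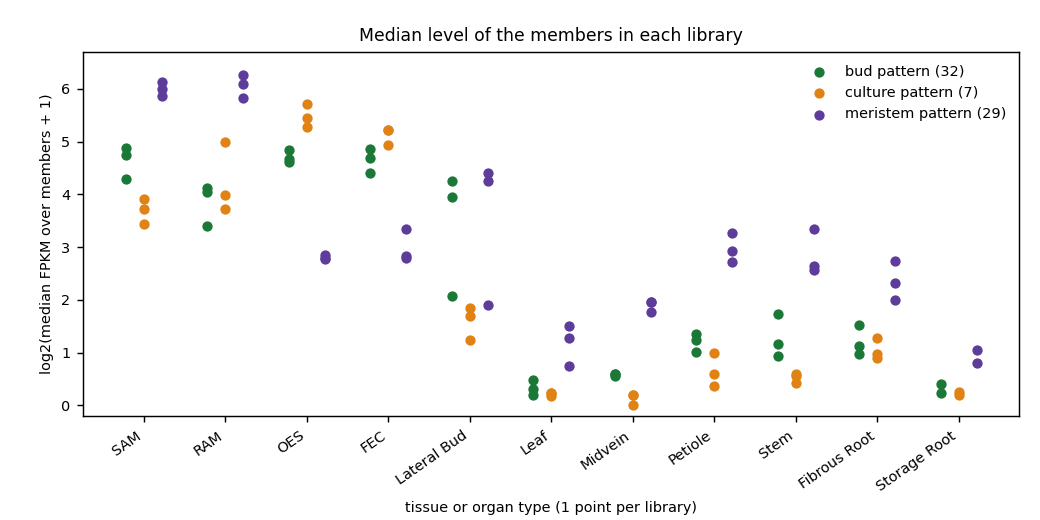
Median FPKM over the members of each pattern, as log2(median + 1), in each library (points) of the 11 sample types. The bud pattern stands between 18.7 and 28.3 FPKM in SAM and at or under 2.32 FPKM in the mature organs, while the meristem pattern falls from 57.3 to 69 FPKM in SAM to between 5.88 and 6.22 FPKM in OES.

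The meristem pattern held the most abundant members. Its median of the highest mean was 66.8 FPKM, and 12 of its 29 members passed 100 FPKM, against 7 of 32 in the bud pattern and 0 of 7 in the culture pattern. Manes.12G129100 had the highest level, with 945, 1790 and 1651 FPKM in SAM and 1199, 581 and 608 FPKM in RAM. It fell to between 88.5 and 147 FPKM in the 6 culture libraries, stood at 398, 6.17 and 332 FPKM in lateral bud, and at no more than 124 FPKM in any mature-organ library. The SAM and RAM libraries overlapped, and neither overlapped with the cultures.

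Manes.14G013600 followed the same course, with means of 1357 ± 461 FPKM in SAM and 740 ± 196 FPKM in RAM (SD, n = 3 each), 75.7 ± 4.58 FPKM in OES and 88.7 ± 12.3 FPKM in FEC. Manes.06G025200 averaged 730 ± 201 FPKM in SAM (SD, n = 3) and was also the member with the highest mean in stem (77.8 FPKM), fibrous root (41.5 FPKM) and leaf (31 FPKM). The locus that spans Manes.16G033200, Manes.16G033300 and Manes.16G033400 averaged 712 FPKM in SAM and 506 FPKM in RAM. None of these 4 loci carried an annotation here.

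Manes.01G078300 had the widest gap of all members (3.43) and the highest level among the annotated ones. It belongs to the bifunctional inhibitor, lipid-transfer protein and 2S albumin superfamily, small cysteine-rich proteins that are mostly secreted. Its levels were 957, 916 and 789 FPKM in SAM and 1040, 676 and 576 FPKM in RAM. Lateral bud libraries 1 and 3 gave 107 and 101 FPKM, and library 2 gave 1.4 FPKM. OES averaged 48.9 ± 10.3 FPKM and FEC 0.52 ± 0.144 FPKM (SD, n = 3 each), and leaf, midvein, petiole and stem stayed at or under 0.459 FPKM in every library. Unlike the shoot organs, fibrous root held 14, 15.7 and 18.7 FPKM. The libraries of SAM and RAM overlapped, and those of OES, fibrous root, storage root and FEC lay in that order without overlap.

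The neighbouring genes Manes.13G097500 and Manes.13G097600, with consecutive numbers on chromosome 13, had parallel profiles. The correlation between their log2(FPKM + 1) over the 32 libraries, which share all sample types, was 0.98. The rule chose both genes for the same pattern in these libraries, so a high value was largely built in. Other pairs of members were not compared. Manes.13G097500 averaged 440 FPKM in SAM and 461 FPKM in RAM, and Manes.13G097600 averaged 372 and 581 FPKM. Both were lower in OES, at 39.5 and 42.4 FPKM. Manes.01G170700, with the next widest gap (3.40), averaged 46.6 ± 7.44 FPKM in SAM and 40.8 ± 14.3 FPKM in RAM (SD, n = 3 each), while no other library exceeded 5.28 FPKM. Manes.17G053200 averaged 52.5 FPKM in SAM and 66.8 FPKM in RAM and was listed at 0 in all leaf and storage root libraries.

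In the meristem pattern the cultures did not always lie between the meristems and the organs. OES and FEC both exceeded every mature organ at 12 of 29 members. Both lay below at least 1 mature organ at 10, FEC alone at 4 and OES alone at 2, and at Manes.17G076500 cultures and organs were all at 0. Lateral bud was the next highest sample type after SAM and RAM at 19 of the 29. The transcription factor heat shock factor B4 (Manes.02G136700), whose Arabidopsis counterpart acts in the stem cell niche of the root, is an example of low cultures. RAM gave 74, 43.4 and 31.7 FPKM and SAM 14.4, 22.4 and 19.1 FPKM, whereas the highest OES library gave 0.801 FPKM and the highest FEC library 0.0522 FPKM. Petiole, at 2.8 ± 0.918 FPKM (SD, n = 3), stood above both cultures.

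**Figure D3:**
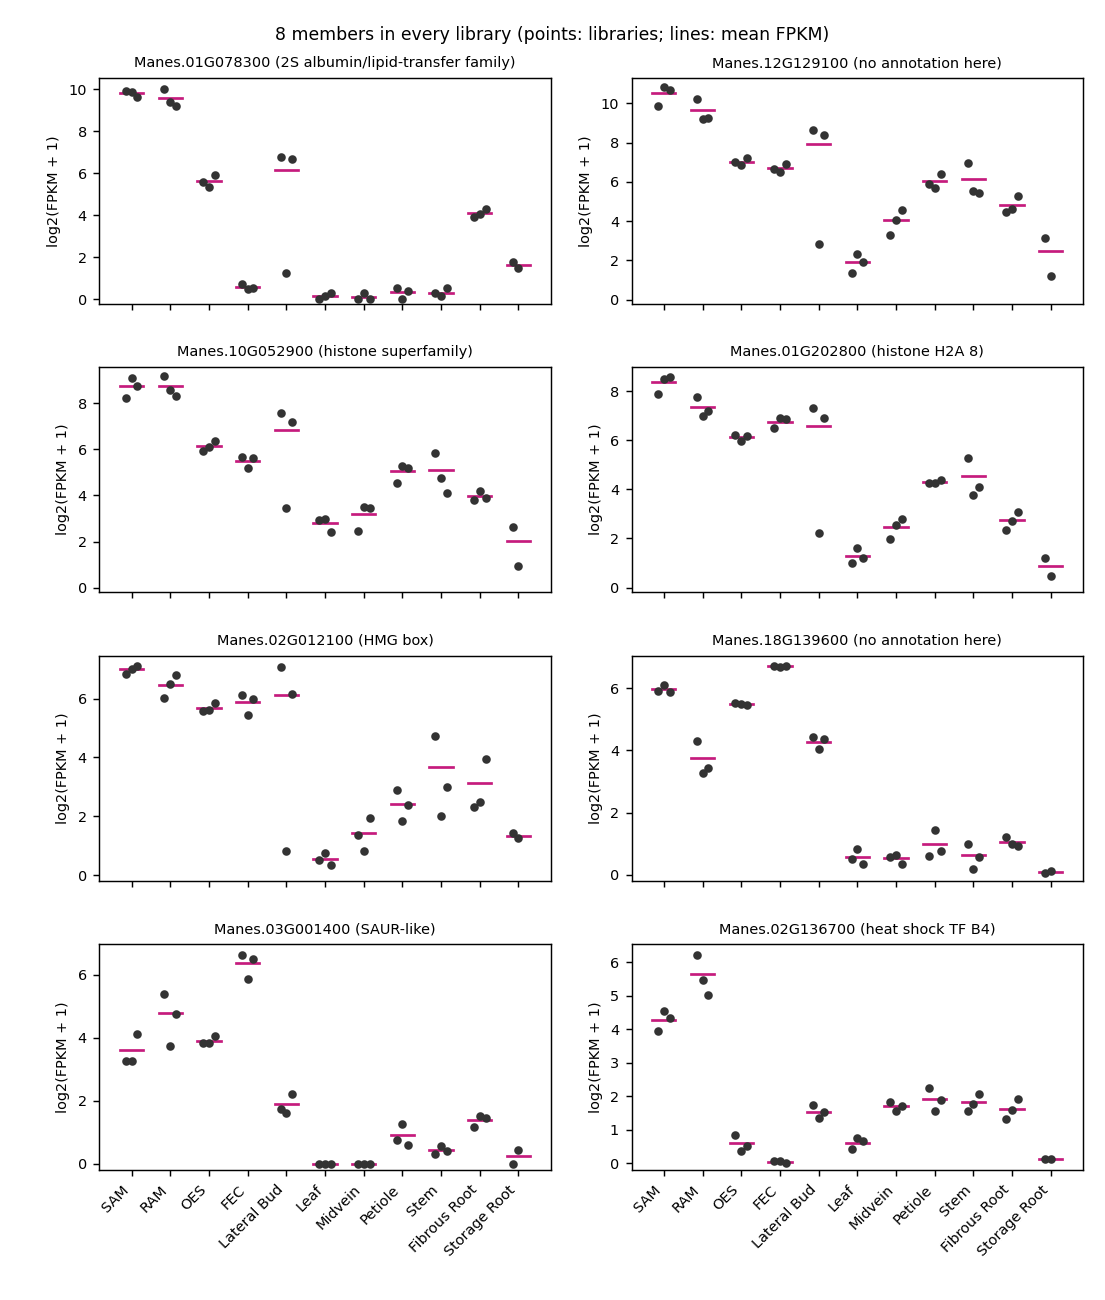
Levels of 8 members as log2(FPKM + 1) in the 11 sample types, with a point for each library and a line at the mean FPKM. For Manes.12G129100, Manes.10G052900, Manes.01G202800 and Manes.02G012100 lateral bud library 2 lies far below libraries 1 and 3, whereas for Manes.18G139600 the 3 bud libraries lie together at 15.4 to 20.4 FPKM.

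Histones, the proteins around which DNA is wound, were the best represented group. Of 11 loci annotated as histones, all of which reached 10 FPKM, 5 were members (45.5%), against 68 of 20991 (0.324%) over all such loci. The annotated loci were drawn from genes the study had called on these samples, so these shares are not independent evidence, and near-identical histone copies can share reads that the mapping may split or drop. Manes.10G052900, a histone superfamily gene, gave 294, 547 and 424 FPKM in SAM and 570, 377 and 315 FPKM in RAM. It stood at 59.5 to 80.1 FPKM in OES, 35.8 to 49.7 FPKM in FEC and at or under 56.5 FPKM in mature organs. Stem library 1 set that last value, and the stem and culture libraries overlapped.

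Manes.06G168000 averaged 414 ± 113 FPKM in SAM and 257 ± 88.9 FPKM in RAM (SD, n = 3 each), and Manes.01G069400 averaged 205 and 202 FPKM. These 3 histone genes were of the meristem pattern, with at most 68.8 FPKM on average in the cultures. The other 2 were of the bud pattern. Manes.01G202800, annotated as histone H2A 8, whose Arabidopsis namesake is of the H2A.Z variant group, gave 236, 363 and 383 FPKM in SAM and 213, 127 and 146 FPKM in RAM. It averaged 68.8 FPKM in OES and 107 FPKM in FEC, and bud libraries 1, 2 and 3 gave 156, 3.67 and 120 FPKM. Manes.09G169400, histone H2A 7, whose Arabidopsis namesake is of the H2A.W group of heterochromatin, averaged 89.5 FPKM in SAM, 52.9 FPKM in RAM, 29.3 FPKM in OES and 43.1 FPKM in FEC. Its bud libraries gave 40.3, 17.8 and 42.3 FPKM, a smaller drop in library 2.

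The 6 histone loci outside the set show where the rule cut. Manes.05G070300 had SAM and RAM means of 460 and 217 FPKM, but its widest gap was 1.33, under the limit of 1.5. Histone H2A 11 at Manes.05G083000 averaged 216 FPKM in SAM and 0.985 FPKM in leaf, with a widest gap of 1.19. Other histones had another distribution altogether, such as histone H1-3 (Manes.01G144600), which averaged 5017 FPKM in storage root, and Manes.03G141500, which averaged 566 FPKM in FEC and at most 0.646 FPKM outside the cultures.

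Further annotated members act on DNA or chromatin. Manes.05G161000 encodes a protein like dUTP pyrophosphatase 1, an enzyme that keeps uracil out of new DNA, and gave 83.8, 100 and 119 FPKM in SAM and 196, 118 and 74.5 FPKM in RAM. Bud libraries 1, 2 and 3 gave 27.7, 0.861 and 26.4 FPKM. Manes.02G072500, anti-silencing function 1b, a chaperone that hands histones to newly copied DNA, averaged 16.7 ± 1.46 FPKM in SAM and 25.6 ± 12 FPKM in RAM (SD, n = 3 each), with 4.1 FPKM in OES and 4.84 FPKM in FEC. Both were of the meristem pattern. The high mobility group box gene Manes.02G012100, of a family of DNA-bending chromatin proteins, was of the bud pattern, with means of 126 ± 12.4 FPKM in SAM, 87.7 ± 23.7 FPKM in RAM, 50.4 ± 6 FPKM in OES and 58 ± 13.6 FPKM in FEC (SD, n = 3 each). Its bud libraries gave 133, 0.766 and 70.4 FPKM, the widest drop in library 2 of all members on the log2(FPKM + 1) scale.

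A pair of members is named for mitosis or its control. Manes.02G031400, a cell cycle regulated microtubule associated protein, averaged 17.5 FPKM in SAM, 21.7 FPKM in RAM, 37.9 FPKM in OES and 26.6 FPKM in FEC, with 23.3, 1.42 and 14.5 FPKM in the bud libraries. Ubiquitin-conjugating enzyme 20 (Manes.06G161300), whose Arabidopsis namesake belongs to the enzymes that serve the destruction of mitotic cyclins, gave 93.4, 99.2 and 95.5 FPKM in SAM and 61.7, 109 and 144 FPKM in RAM. OES and FEC averaged 37.5 and 39.5 FPKM, and the bud libraries gave 78.1, 0.937 and 46.3 FPKM. Stem library 1, at 22.7 FPKM, was the highest mature-organ library for it, against 2.7 and 6.64 FPKM in the other stem libraries.

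The bud pattern was not uniform in its bud libraries. With log2(FPKM + 1), library 2 lay more than 4-fold below the mean of libraries 1 and 3 at 16 of the 32 members and within 2-fold of it at 12, 10 of which had at least 50 fragments in some library. Over all named loci of at least 10 FPKM the median difference was 0.00, and 567 of 20991 lay more than 4-fold lower in library 2. At more than 2-fold lower there were 20 of the 32 members and 9.05% of these loci. The groups of 16 and 10 were formed after seeing these values and carry no test. The group of 16 held 6 annotated members, among them the histone Manes.01G202800, the high mobility group gene, the microtubule associated protein and ubiquitin-conjugating enzyme 20. The group of 10 held none.

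For the 10 members with even bud libraries the median of the means was 10.4 FPKM in RAM and 32.6 FPKM in SAM, whereas for the group of 16 it was 20.8 and 19.3 FPKM. Manes.18G139600, the bud-pattern member with the widest gap (2.69), gave 20.4, 15.4 and 19.7 FPKM in the bud libraries. It stood at 58.6, 67.8 and 57.2 FPKM in SAM, 18.7, 8.76 and 9.88 FPKM in RAM, 42.8 to 45.5 FPKM in OES and 102 to 104 FPKM in FEC. These 4 ranges did not overlap. Manes.11G020300, whose gene name lies on more than 1 locus, gave 9.96, 10 and 14.5 FPKM in lateral bud, 39.6 to 45.2 FPKM in SAM and 1.62 to 10.1 FPKM in RAM, and at most 0.243 FPKM in any mature-organ library. Manes.04G071400 gave 11, 9.73 and 11.3 FPKM in the bud libraries and 34, 41.7 and 36.5 FPKM in SAM. Manes.11G006800, also with an even bud, varied within the meristems, from 10.4 to 107 FPKM in RAM. Manes.02G022800, of a family with lipid-binding C2 domains, lay between the groups. It gave 20.7, 6.48 and 15.8 FPKM in lateral bud, averaged 35.6 ± 3.37 FPKM in OES and between 20.9 and 23.5 FPKM in SAM, RAM and FEC, and kept 2.34 ± 0.261 FPKM in fibrous root (SD, n = 3 each).

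Members lower in bud library 2 tended to be higher in stem library 1. Stem library 1 exceeded the mean of the other stem libraries by more than 2-fold at 10 of 32 bud-pattern members and 9 of 29 meristem-pattern members, and at 3.3% of all named loci of at least 10 FPKM. It also stood apart at 10 laccase and cellulose synthase loci, listed as genes of xylem and secondary walls. Their summed level was 14.4 FPKM in stem library 1, against 184 and 83.5 FPKM in stem libraries 2 and 3. Single libraries of other sample types also differed at these loci. RAM library 2 gave 51.1 FPKM, against 9.45 and 9.63 FPKM in RAM libraries 1 and 3. Petiole library 1 gave 67.5 FPKM, against 175 and 156 FPKM in petiole libraries 2 and 3. How these differences relate to the levels of the members was not tested. Across the 65 members with at least 50 fragments the difference in bud library 2 and that in stem library 1 had a Pearson correlation of -0.75 and a Spearman correlation of -0.74. Across all 20991 loci these were -0.23 and -0.37. Genes are not independent and all points share the same 6 libraries, so the values describe these libraries. The members were also selected on means that hold these libraries. Without bud library 2 only 12 of the 29 meristem-pattern members kept that pattern, so the correlation over members is partly shaped by selection. The same differences appeared in cell cycle genes outside the set. Of 20 cyclin and cell cycle kinase loci, 16 lay more than 2-fold lower in bud library 2 and 8 more than 2-fold higher in stem library 1, and of 12 DNA replication loci 9 and 3. Among 19 spindle and cytokinesis loci these counts were 10 and 3, and among 46 growth and meristem transcription factor loci 1 and 3. Of those 46, 7 lay more than 2-fold higher in bud library 2 and 6 more than 2-fold lower in stem library 1. Lists of other functions also had loci more than 2-fold lower in bud library 2. These were 7 of 29 ribosome and nucleolus loci, 27 of 142 receptor and cell wall loci and 4 of 11 methylation and chromatin loci. Of the same loci 0, 15 and 1 lay more than 2-fold higher in stem library 1. Over all named loci of at least 10 FPKM, 9.05% were lower in bud library 2.

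**Figure D4:**
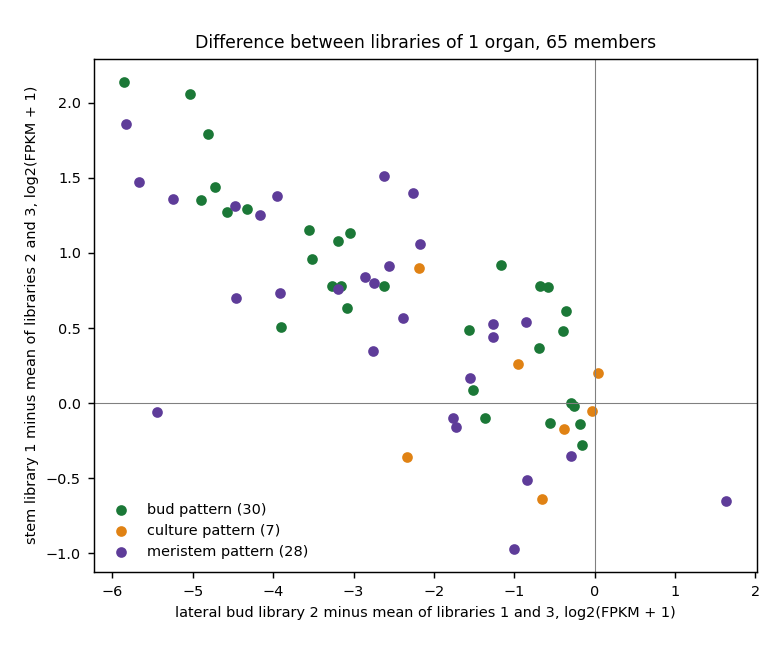
Each point is 1 of 65 members, coloured by pattern, with the difference of lateral bud library 2 from libraries 1 and 3 on the x axis and that of stem library 1 from libraries 2 and 3 on the y axis, both in log2(FPKM + 1). Points at the left, where bud library 2 is low, lie higher in stem library 1 (Pearson correlation -0.75).

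The culture pattern had 7 members, and 5 of them were highest in OES. Manes.13G127400 gave 79.4, 92 and 97.6 FPKM in OES and 34.1, 29.6 and 21.2 FPKM in FEC, above 9.79 to 12.2 FPKM in SAM and 6.22 to 11.2 FPKM in RAM. Manes.13G106500 averaged 88.2 ± 9.12 FPKM in OES, 31.6 ± 8.33 FPKM in FEC, 18 ± 11.4 FPKM in RAM and 9.23 ± 1.31 FPKM in SAM (SD, n = 3 each). In both genes all OES libraries exceeded all FEC libraries. Manes.03G001400, a SAUR-like gene of a family of small auxin-induced proteins, was the annotated member. It gave 97.8, 57.7 and 90.1 FPKM in FEC, 13.3, 13.1 and 15.6 FPKM in OES, 40.7, 12.3 and 26.1 FPKM in RAM and 8.55, 8.65 and 16.2 FPKM in SAM, and was listed at 0 in every leaf and midvein library. The locus of Manes.09G116900 and Manes.09G117000 varied between replicates, with 0.798, 15.4 and 0.426 FPKM in SAM, and the SAM 2 value rested on 5 fragments. Manes.16G076300 averaged 48.6 FPKM in RAM and between 31.9 and 40.8 FPKM in SAM, OES and FEC.

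In the mature organs the residual levels differed between organs. The median over the 68 member means was 2.54 FPKM in stem, 2.19 FPKM in petiole, 1.8 FPKM in fibrous root, 0.965 FPKM in midvein, 0.467 FPKM in leaf and 0.399 FPKM in storage root. Library medians of stem (1.8 to 2.85 FPKM), petiole (2.01 to 2.43 FPKM) and fibrous root (1.33 to 2.55 FPKM) overlapped, those of midvein (0.805 to 1.1 FPKM) lay below them, and those of leaf (0.275 to 0.518 FPKM) and storage root (0.25 and 0.431 FPKM) overlapped below midvein. Stem was the highest mature organ for 30 members and petiole for 20, and storage root was the lowest for 32 and leaf for 26, with ties at 9. A tie was counted for leaf wherever leaf was among the tied organs, and never for storage root. At 48 members the storage root mean was under 1 FPKM. A mature organ exceeded 10 FPKM at 18 members, 14 of them of the meristem pattern. Manes.04G057600 was the member with the highest mean in storage root (20.7 FPKM), and its leaf, petiole and stem means of 16.7, 19.1 and 17.2 FPKM all exceeded its OES and FEC means of 4.74 and 6.71 FPKM.

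Fibrous root and storage root, which lay on the low side in every member, were compared with edgeR. Its quasi-likelihood test was fitted on the fragment counts of all named loci, with Benjamini-Hochberg adjustment over the loci whose mean reached 1 FPKM in one or both of the sample types. A locus was called at an adjusted p below 0.05 with mean FPKM more than 4-fold apart in the direction of the fitted change. The rule limits how far members can lie apart within the low or within the high tissues, so the counts are set beside the background. Of the 68 members 44 were tested and 24 were under 1 FPKM in both roots. Of the 44, 24 reached 1 FPKM in fibrous root alone, so they could be called in that direction only, and 20 reached it in both roots. Among these 20, a restriction made after seeing the data, 4 were called at 4-fold, all higher in fibrous root, against 11.3% of the 18717 loci with that level in both. At 2-fold the same number was higher, against 13.4% of loci, and 0 were lower, against 19.6%. At an unadjusted p below 0.05, 1 was lower, and DESeq2 and limma called 0 lower and 8 and 6 higher at 2-fold. Over all 44 members 19 were called at 4-fold, against 22.8% of the 23420 loci tested, and 21 were higher and 0 lower at 2-fold, against 24.1% and 17.7%. The filter fixed the direction of 15 of the 19 and 17 of the 21, and 6 of the 19 had at most 3 fragments in a storage root library, so nothing is read from these counts. An edgeR fit of the compared sample types alone called 2 lower. Leaving out storage root library 2 left 7 calls at 4-fold, and leaving out fibrous root library 3 left 12. Without the filter on low values there were 27.

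Manes.01G078300, described above, was higher in fibrous root than in storage root (2.46 and 1.84 FPKM), with a log2 fold change of 2.84 ± 0.91 (SE, edgeR adjusted p = 0.00923). Without storage root library 2 its adjusted p was 0.0805. Manes.13G097500 gave 9.28, 8.18 and 16.4 FPKM in fibrous root and 2.96 and 0.738 FPKM in storage root (log2 fold change 2.56 ± 1.10, edgeR adjusted p = 0.048), a call that was lost on leaving out 4 of the 5 libraries in turn (adjusted p of 0.0585, 0.116, 0.0647 and 0.269). Manes.12G129100 gave 20.7, 23.4 and 37.5 FPKM against 7.9 and 1.3 FPKM (log2 fold change 2.51 ± 1.0, edgeR adjusted p = 0.0333), lost without fibrous root library 3 (0.0803) or storage root library 2 (0.256). Heat shock factor B4, at 2.11 FPKM in fibrous root and 0.0948 FPKM in storage root, had at most 1 fragment in a storage root library.

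Between the meristems, 6 of the 68 members were called at 4-fold, against 21.8% of the 23909 loci tested. At 2-fold 9 were higher in SAM and 3 in RAM, against 20.6% and 20.7% of loci. All 9 were of the bud pattern. In the meristem pattern SAM and RAM are neighbours in the sorted order, so the rule keeps them closer together than the widest gap. In the bud pattern other sample types can lie between them. The rule thus limits this count unequally, and the difference between the patterns was not tested. Manes.11G020300 was higher in SAM with a log2 fold change of 2.99 ± 0.46 (SE, edgeR adjusted p = 7.2e-06). Manes.04G071400, at 8.01, 3.66 and 3.94 FPKM in RAM, and Manes.05G151900, at 30.2, 41.1 and 41.8 FPKM in SAM and 4.83, 5.66 and 5.29 FPKM in RAM, followed with 2.82 ± 0.34 and 2.84 ± 0.37 (edgeR adjusted p = 1.1e-07 and 4.1e-07). Their libraries did not overlap. The winged-helix DNA-binding gene Manes.01G224200 gave 77.9, 153 and 149 FPKM in SAM and 35.7, 26.6 and 27.4 FPKM in RAM (log2 fold change 2.06 ± 0.59, edgeR adjusted p = 0.00416).

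In the other direction the locus of Manes.09G116900 and Manes.09G117000 was called at 4-fold although its SAM and RAM libraries overlapped in FPKM, and heat shock factor B4 was lower in SAM (log2 fold change -1.52 ± 0.32, edgeR adjusted p = 0.00025). The 5 histone members were not called between SAM and RAM, which does not show equal levels. Manes.10G052900 had a log2 fold change of 0.08 ± 0.59 and Manes.01G202800 of 0.96 ± 0.57 (edgeR adjusted p = 0.911 and 0.148). The SAM and RAM libraries of Manes.01G202800 did not overlap. The fit estimated the spread of a locus over all 11 sample types, so uneven lateral bud and stem libraries entered these standard errors. In a fit of SAM and RAM alone 13 members were higher in SAM at 2-fold and 3 in RAM.

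Between the cultures 63 members were tested, and 5 were under 1 FPKM in both. At 4-fold 6 were called, 3 in each direction, against 13% of the 22927 loci tested. At 2-fold 8 were higher in OES and 5 in FEC, against 14.2% and 12.9% of loci. The 5 became 9 in a fit of the compared sample types alone and 3 with limma and a pseudocount of 0.1. Manes.01G078300 was higher in OES by a log2 fold change of 6.49 ± 0.85 (edgeR adjusted p = 9.7e-07), on at most 9 fragments in an FEC library. The locus of Manes.07G078300 and Manes.07G078400, annotated as a leucine-rich repeat protein kinase, a type of membrane receptor, gave 10.1, 9.42 and 13.6 FPKM in OES and 1.12, 0.607 and 1.35 FPKM in FEC (log2 fold change 3.36 ± 0.37, edgeR adjusted p = 8.5e-08). In SAM and RAM it averaged 63.9 and 54.6 FPKM. The SAUR-like gene Manes.03G001400 was lower in OES than in FEC (log2 fold change -2.64 ± 0.38, edgeR adjusted p = 8.4e-06). The locus of Manes.09G116900 and Manes.09G117000, with OES libraries of 37.8, 51.4 and 42.5 FPKM and FEC libraries of 6.61, 6.87 and 6.06 FPKM, had a ratio of means of 6.74 but a log2 fold change in fragments of 1.58 ± 0.37 (edgeR adjusted p = 0.00116). Of the 3 members called higher in FEC at 4-fold, Manes.01G232100 had at most 3 fragments in an OES library and Manes.01G230700 is one of the members with few reads.

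Meristems and cultures were compared over the 39 members with all 4 tissues above the gap. At 4-fold 2 were called, both higher in the cultures, against 18.5% of the 24590 loci tested. At 2-fold 3 were higher in the meristems and 7 in the cultures, against 20.8% and 16.3% of loci. The 3 became 5 without SAM library 1 and 1 with limma and a pseudocount of 0.1. The 2 were Manes.13G127400 (log2 fold change -2.34 ± 0.28, edgeR adjusted p = 6.5e-08) and Manes.13G106500 (-2.05 ± 0.22, edgeR adjusted p = 1.3e-08). At 4-fold 0 were higher in the meristems by edgeR, DESeq2 or limma, and 6 were higher at an unadjusted p below 0.05 whatever the fold. The 3 higher in the meristems at 2-fold included ubiquitin-conjugating enzyme 20 (log2 fold change 1.35 ± 0.50, edgeR adjusted p = 0.0187) and the histone gene Manes.01G202800 (1.39 ± 0.41, edgeR adjusted p = 0.004). All SAM, RAM, OES and FEC libraries exceeded all mature-organ libraries at 35 of these 39 members, and at 2.21% of named loci of at least 10 FPKM. The rule used that contrast.

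Lateral bud and SAM were compared over the 32 bud-pattern members. At 4-fold 2 were called, both lower in bud, against 10% of the 23427 loci tested. At 2-fold 12 were lower in bud and 0 higher, against 9.72% and 13.6% of loci. The bud mean was under the SAM mean at 28 of 32 members, and the median log2 fold change was -1.13, against 0.04 over all loci tested. At an unadjusted p below 0.05, 1 member was higher in bud, and DESeq2 called 0 and limma 2 higher at 2-fold. Without bud library 2 there were 10 members lower at 2-fold and 1 called at 4-fold, and without bud library 1 there were 17 and 8. Manes.05G151900, at 7.1, 1.78 and 7.27 FPKM in bud, was lower than in SAM by a log2 fold change of -2.81 ± 0.37 (edgeR adjusted p = 2.4e-06). Manes.16G052100 gave 18.6, 10.1 and 15.3 FPKM in bud and 71.2, 72.5 and 55.8 FPKM in SAM (log2 fold change -2.08 ± 0.42, edgeR adjusted p = 0.00053), and fell below the 4-fold limit without bud library 2. Both H2A genes of the bud pattern were lower in bud at 2-fold, Manes.09G169400 with -1.40 ± 0.32 (edgeR adjusted p = 0.00128) and Manes.01G202800 with -1.76 ± 0.58 (edgeR adjusted p = 0.0174). For Manes.01G202800 the low bud library 2 widened the difference, as libraries 1 and 3 averaged 138 FPKM, against 327 FPKM in SAM. Manes.18G139600, with its even bud libraries, was lower as well (-1.71 ± 0.28, edgeR adjusted p = 3.4e-05).

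**Figure D5:**
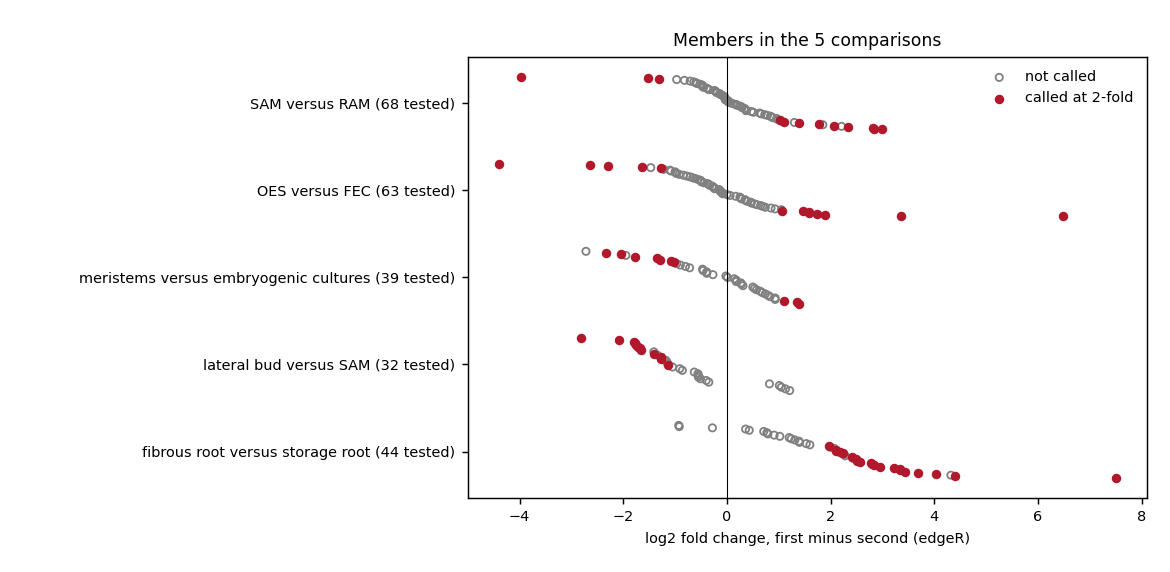
Log2 fold changes (x axis, first sample type minus second, edgeR) of the members tested in each of the 5 comparisons, 1 point per member, sorted within a comparison and filled where called at 2-fold. In fibrous root versus storage root the 21 filled points lie at the right, and in lateral bud versus SAM the 12 filled points lie at the left.

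Most annotated cell cycle loci were outside the set although many had the same order of tissues. Of 12 DNA replication loci of at least 10 FPKM 0 were members, yet SAM and RAM means both exceeded every mature-organ mean at 10. For 20 cyclin and cell cycle kinase loci these counts were 0 and 16, and for 20 spindle and cytokinesis loci 1 and 10. Over all 20991 loci of at least 10 FPKM the order held at 11.7%. Of the 29 ribosome and nucleolus loci 0 were members and 1 had the order, and of 46 growth and meristem transcription factor loci 0 and 11. Between fibrous and storage root, 9 of 12 DNA replication loci and 8 of 19 cyclin and kinase loci were higher in fibrous root at 2-fold. Of 21 spindle and cytokinesis loci 5 were higher and 7 lower, against 24.1% and 17.7% of all loci tested. Loci that reached 1 FPKM in fibrous root alone could be called in that direction only. They were not set apart here, so nothing is read from these root counts. Between lateral bud and SAM, 8 of 12 replication loci and 7 of 21 cyclin and kinase loci were lower in bud, whereas of 22 spindle and cytokinesis loci 3 were higher and none was called lower, against 9.72% lower and 13.6% higher over all loci tested.

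At the limits of the rule, Manes.04G099700 and Manes.17G105600, both of the bud pattern with a gap of 1.518, were the last inside, with highest means of 25.1 and 16 FPKM. Manes.03G166700, with a gap of 1.481 and a highest mean of 327 FPKM, and Manes.09G035400, with a gap of 1.474 and a highest mean of 16 FPKM, were the first outside, both with SAM and RAM alone above the gap. Manes.14G169100 entered with a highest mean of 11.7 FPKM, while Manes.18G099700, of the bud pattern with a gap of 1.545, stayed out at 9.38 FPKM.

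Loci of the meristem pattern gave fewer fragments per unit of FPKM than the typical locus, as loci with short transcripts do. Another annotated member of that pattern, Manes.08G018100 of the TauE/SafE family of sulfite exporters, averaged 32.7 ± 4.85 FPKM in SAM and 37.7 ± 15.6 FPKM in RAM (SD, n = 3 each) and 5.08 FPKM in OES. Relative to the median named locus of at least 10 FPKM in the same library, the median ratio was 0.469 for the meristem pattern, 0.5 for the culture pattern and 1.17 for the bud pattern. Of 28 meristem-pattern members with a ratio, 22 lay below the median locus. SAM and RAM libraries were also prepared differently from the others, and the part of transcript length in the meristem pattern was not tested.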

How the data were processed

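Reads were trimmed with Trimmomatic 0.32 and mapped by the authors to the AM560-2 v6.1 assembly with TopHat2 (2.0.10 in the submitters' processing notes, another release in the paper), and loci were built and quantified with Cufflinks and Cuffdiff 2.2.1. Reads that matched several genes were left out, according to the methods of the Cufflinks step. Per library and locus the authors deposited an FPKM value, scaled by Cuffdiff, and an estimated count of fragments, made by Cuffdiff, 79.6% of which were whole numbers among values above 0. Counts were rounded. Deposited scaled fragments and the table repeating FPKM were not used. Between 1.73% and 5.76% of fragments lay on unnamed loci, which were left out.

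The members and lists were chosen with earlier results of these data known. Tests used edgeR 4.0.16 in R 4.3.3, with 1 fit of 11 sample-type means over 32 libraries and TMM factors of 0.72 to 1.15. The common biological coefficient of variation was 0.264. Tested loci had a mean of 1 FPKM or more in one or both sample types. Calls needed an adjusted p below 0.05, a ratio of mean FPKM above 4, with 2 given beside it, and agreement between the directions of ratio and fit, a condition added after seeing the data. Standard errors are log2 fold changes divided by the root of the F statistic. All libraries shared a lane. The replicates are biological according to the methods, and p-values measure the spread between these libraries. The code of the fits was run on simulated counts with a common spread, where large changes were placed at well-covered loci only. Changes at low levels and smaller changes were not simulated, so that run does not speak to them. Python 3.11.15 with pandas 2.3.3, numpy 2.4.6 and matplotlib 3.10.9 did the rest.

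Genes were named by rule: the 10 widest gaps, the 5 highest means, up to 4 members per annotation list, per comparison and direction the 3 members called at 4-fold with the largest ratio, without overlap and with at least 1 FPKM on the lower side, the members and loci nearest the limits, and the members highest in stem, fibrous root, storage root and leaf. Other genes, including the remaining annotated members and the histones outside the set, were chosen after their values were seen. Promoter motifs were not examined here. Gene lists were made by words in the annotation. Alternatives were median-ratio factors, DESeq2 1.42.0, limma 3.58.1 on log2(FPKM + 1) or log2(FPKM + 0.1), other filters, compared sample types only, a replicate block, other rules for membership and leaving out each library.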

Additional observations from a re-analysis of the deposited data

How the results depend on the processing

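With the fold limit at 2 in place of 4, called members rose from 6 to 12 (SAM versus RAM), 6 to 13 (OES versus FEC), 2 to 10 (meristems versus cultures) and 2 to 12 (lateral bud versus SAM). With a filter of 10 FPKM, 4 members were called between fibrous and storage root, since few reach that level in either, and 4 were among members of at least 1 FPKM in both roots, a restriction added after seeing the data. The other factors, tools, filters and sets of sample types kept these counts within 1.5 times. Leaving out 1 library gave 4 to 9 calls for SAM versus RAM, 5 to 7 for OES versus FEC, 1 to 3 for meristems versus cultures (1 without RAM library 2), 1 to 8 for lateral bud versus SAM (8, 1 and 4 without bud library 1, 2 and 3) and 7 to 20 for fibrous versus storage root (12 without fibrous root library 3, 7 without storage root library 2).

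The rule gave 56 to 99 members on leaving out 1 library. The 99 came without stem library 1 and held all 68. A gap of at least 2 gave 22 members. The count stayed within 1.5 times under the other settings, but not the members: 48 of the 68 remained among 76 with tissue medians, 48 among 95 with FPKM rescaled to a sum of 1000000, 60 among 90 with a pseudocount of 0.1, and 66 among 67 with FPKM divided by median-ratio factors. Keeping loci with 1 gene name found nowhere else left 61. Requiring at least 30 fragments in some library, a limit chosen after seeing the data, left 66.

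Same-numbered replicates did not deviate together (correlations of -0.11 to 0.09 over 23 pairs), and the numbers were not used to pair the samples. These correlations cannot show whether same-numbered samples came from the same plants. With the number as a replicate block, 16 members were called between fibrous and storage root, and Manes.13G097500 was lost (edgeR adjusted p = 0.053). Fragment numbers limit storage root most, where 48 of 68 members had a mean under 1 FPKM.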

Other observations

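Among 5861 loci without a gene name, 4 met the same rule. The first averaged 66817 FPKM in OES on at most 12 fragments in a library, and the second averaged 535 FPKM in RAM on at most 2 fragments, so these levels rest on almost no reads. The third averaged 28.8 FPKM in FEC, with up to 1141 fragments, a gap of 2.53 and the bud pattern. The fourth averaged 47.5 FPKM in RAM, with up to 36 fragments and the meristem pattern.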
